A study of Homo sapiens with 12 samples.

Results

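The HOX gene clusters encode several miRNAs, and 7 mature miRNAs made from them were followed while A549 cells were treated with TGF-β for 0, 24, or 96 h: hsa-miR-10a-5p, hsa-miR-10a-3p, hsa-miR-10b-5p, hsa-miR-10b-3p, hsa-miR-196a-5p, hsa-miR-196b-5p, and hsa-miR-615-3p. They were chosen by name among the 2588 mature miRNAs of the count table, 1417 of which had a read, and where a name stood on several entries the entry with the highest total was used. A549 is a human line of epithelial cells from a lung adenocarcinoma. TGF-β induces EMT in it, the change from an epithelial to a mesenchymal state. The 3 groups share the cell line and differ in the time with TGF-β. Each holds 2 libraries, and each library was sequenced in 2 runs that the count table adds. By the dates in the run titles, every library has a run of the same date. The other run has a shared date in both 24 h libraries and a later shared date in both 96 h libraries. At 0 h the 2 libraries differ in it, each having either of these dates. Between 24 and 96 h, the date of that run and the time with TGF-β thus cannot be told apart. No untreated culture of 24 or 96 h was analysed here, so time in culture and TGF-β cannot be told apart, and no source used here says that the 2 libraries came from separate cultures, so that the p-values measure the spread between these libraries.

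HOX genes encode transcription factors that set position along the body axis, and they lie in the HOXA, HOXB, HOXC, and HOXD clusters. The miR-10 genes lie just upstream of HOXB4 and HOXD4, and the miR-196 genes lie further toward the 5′ side of their clusters. These miRNAs are therefore often transcribed with neighbouring HOX genes, and several HOX mRNAs are among their targets: miR-196 directs cleavage of HOXB8 mRNA, and miR-10b represses HOXD10. Induction of miR-10b has been tied to invasion of breast cancer cells.

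On GRCh37, which is the hg19 build named in the labels, the 6 precursor genes lie on 4 chromosomes. The hairpin of MIR10A, taken from RefSeq, had 1 exact match in the genome, at chr17:46657200-46657309 on the minus strand, in an exon of a long non-coding RNA and an intron of HOXB3, with HOXB4 1488 bases away. MIR10B lies at chr2:177015031-177015140 on the plus strand, in an intron of HOXD3 and 1138 bases from HOXD4. MIR196A1 lies at chr17:46709852-46709921 in an intron of HOXB7, and MIR196A2 at chr12:54385522-54385631 in an intron of HOXC6. MIR196B lies at chr7:27209099-27209183, in an exon of 1 of the 3 overlapping HOXA9 transcripts, and 1041 bases from HOXA10. MIR615 lies at chr12:54427734-54427829, in an intron of HOXC5 and of HOXC4.

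Mature sequences were found in RefSeq (GRCh38.p14) for 6 of the 7 miRNAs, all except miR-10b-5p. They are shown because the seed, bases 2 to 8 and here in capitals, is the part that pairs with target mRNAs, and because near-identical sequences limit how reads can be assigned.
hsa-miR-10a-5p: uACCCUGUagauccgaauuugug
hsa-miR-10a-3p: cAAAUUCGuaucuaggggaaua
hsa-miR-10b-3p: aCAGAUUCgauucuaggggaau
hsa-miR-196a-5p: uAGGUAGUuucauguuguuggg
hsa-miR-196b-5p: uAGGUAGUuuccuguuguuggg
hsa-miR-615-3p: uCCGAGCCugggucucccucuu
The miR-196 pair has the seed AGGUAGU in common, and no other mature miRNA of the RefSeq table has it. Over their 22 bases the pair differ by 1 substitution, A12C, counted from 1 at the 5′ end with the base of miR-196a-5p first. Each of miR-10a-5p, miR-10a-3p, miR-10b-3p, and miR-615-3p has a seed that no other entry of that table holds. As miR-10b-5p has no entry there, its seed was not compared, and the seed of miR-10a-5p was not shown to be unique. The mature miR-10a-5p and miR-10b-5p are also known to be near-identical. The settings for mismatches behind the counts are not given in the sources used here, so reads of such a pair may have been assigned to the wrong member.

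Totals on mature miRNAs ranged from 2335185 to 5971197 reads per library, the lowest at 0 h and the highest at 96 h. Levels are given as CPM after TMM, a normalization that sets most miRNAs to no change, and where it matters as CPM of the total count. The median log2-fold change of the tested miRNAs at 96 h against 0 h was −0.10 with TMM, −0.83 with total counts, and −0.45 with totals that leave out miR-21-5p, which took 52.4% to 56.1% of the reads at 0 h and 63.8% to 65.5% at 96 h. Markers of other cell types were checked as well. Of 5 fibroblast miRNAs, miR-143-3p and miR-145-5p passed the expression filter and rose at 96 h, and miR-214-3p had 0 reads in every library. miR-145-5p had 0 to 0.366 CPM at 0 h, 1.12 to 1.22 at 24 h, and 6.58 to 6.78 at 96 h. It thus passed the filter only through the 96 h libraries. The list summed to 5.37 to 8.79 CPM at 0 h, 100 to 105 with 24 h of TGF-β, and 418 to 452 with 96 h, and the sum without miR-143-3p was 0.895 to 2.56 CPM, 1.49 to 5.51 CPM, and 8.68 to 9.76 CPM at these times. Of 5 blood miRNAs none passed the filter, miR-223-3p had 0 reads in every library, and their sum was 4.77 to 5.49 CPM at 0 h and 1.13 to 1.36 at 96 h. The endothelial miR-126-3p and miR-126-5p summed to 404 to 460 CPM at 0 h and 455 to 495 at 96 h, and 5 epithelial miRNAs of the miR-200 family to 119 CPM in both libraries at 0 h and 235 to 243 at 96 h. Of these 5, miR-200a-3p and miR-200b-3p were higher at 96 h (log2-fold changes of 0.81 and 1.60, adjusted p = 0.00947 and 0.000257, edgeR), while miR-141-3p, miR-200c-3p, and miR-429 did not pass, at −1.14, −0.035, and 0.20. The part of such cells in the results on HOX-cluster miRNAs was not tested, and fewer cells of a type cannot be told apart from less RNA per cell.

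The HOX-cluster miRNAs were present before TGF-β at very unequal levels, and none passed both thresholds of differential expression at any time on the TMM scale. Together they held 0.678% ± 0.0277 (SD, n = 2 libraries) of the reads at 0 h, 0.561% ± 0.00482 at 24 h, and 0.485% ± 0.0542 at 96 h. Of the reads other than miR-21-5p they held 1.59% and 1.38% before treatment, 1.31% and 1.33% after 24 h, and 1.30% and 1.45% after 96 h, and on this base the libraries at 0 and 96 h overlapped. Among the reads of the 7, miR-10a-5p alone made up 91.9% to 93.1% in each library and ranked between 15 and 20 of all mature miRNAs. At 0 h the order by level was miR-10a-5p, miR-10b-5p, then miR-196a-5p and miR-615-3p, whose libraries overlapped, then miR-196b-5p and miR-10a-3p. Reads of different miRNAs are ligated and amplified with unequal efficiency, so that this order is one of reads.

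Of the 7 miRNAs, 6 passed the expression filter, all except miR-10b-3p. At an adjusted p under 0.05 with an absolute log2-fold change above 1 (the quasi-likelihood F-test of edgeR, with Benjamini-Hochberg adjustment over 491 miRNAs), 0 of the 6 were called at 24 h against 0 h, where 3.46% of all tested miRNAs were called. Between 0 and 96 h 0 of the 6 were called, beside 25.9% of all, and 0 of the 6 between 24 and 96 h, beside 5.91%. At an unadjusted p under 0.05 in the same edgeR fit, 0, 2, and 3 of them passed in these 3 comparisons, against 28.3%, 55.8%, and 31.0% of all tested. DESeq2's Wald test also called 0 of them in each comparison, and limma on the authors' normalized values, where 96 h is 1 library whose spread is assumed to be that of the other groups, called 0, 1, and 0. Without the fold-change threshold, 2 of the 6 were called by edgeR at 96 h against 0 h, beside 44.0% of all: 1 was higher (miR-10b-5p), as were 22.8% of all, and 1 was lower (miR-10a-3p), as were 21.2%. By that rule 0 were called in the other comparisons, beside 7.13% of all between 0 and 24 h and 12.6% between 24 and 96 h. With total counts, where most miRNAs shift downward, the same rule called 1 of the 6 lower between 0 and 24 h (12.4% of all), 5 between 0 and 96 h (56.8%), and 3 between 24 and 96 h (25.1%). On the TMM scale both later libraries lay above both earlier ones for 2 of the 6 at 24 h against 0 h (29.3% of all) and below for 1 (28.5%). The counts were 2 above (33.0%) and 3 below (38.7%) between 0 and 96 h, and 3 above (30.3%) and 3 below (31.6%) between 24 and 96 h. The median log2-fold change of the 6 at 96 h was −0.14, beside −0.10 over all tested miRNAs. The levels and changes are shown on both scalings.

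**Figure D1:**
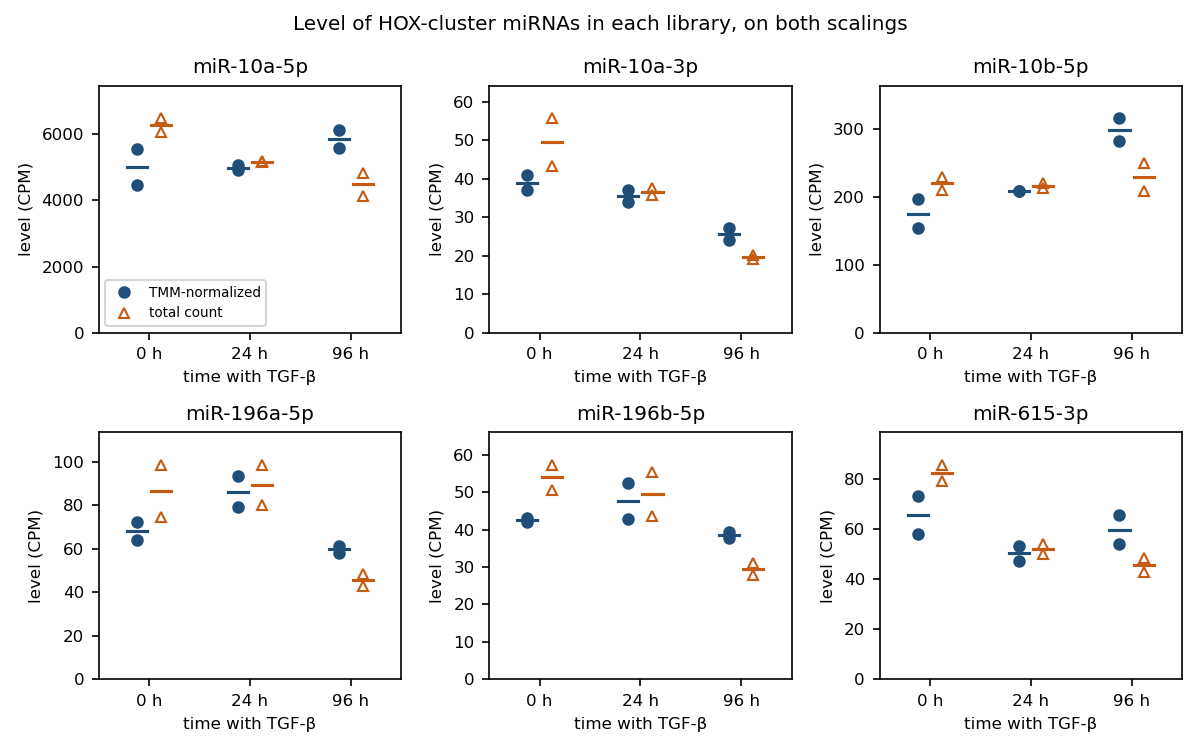
Level of the 6 tested HOX-cluster miRNAs (y axis, CPM from 0) in each library at 0, 24, and 96 h of TGF-β (x axis); filled circles are TMM-normalized CPM, open triangles CPM of the total count, and bars the means of 2 libraries. Of the 2 scales shown, miR-10b-5p rises at 96 h on the TMM scale only, to 282 and 316 CPM, while miR-10a-3p is lowest at 96 h on both.

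**Figure D2:**
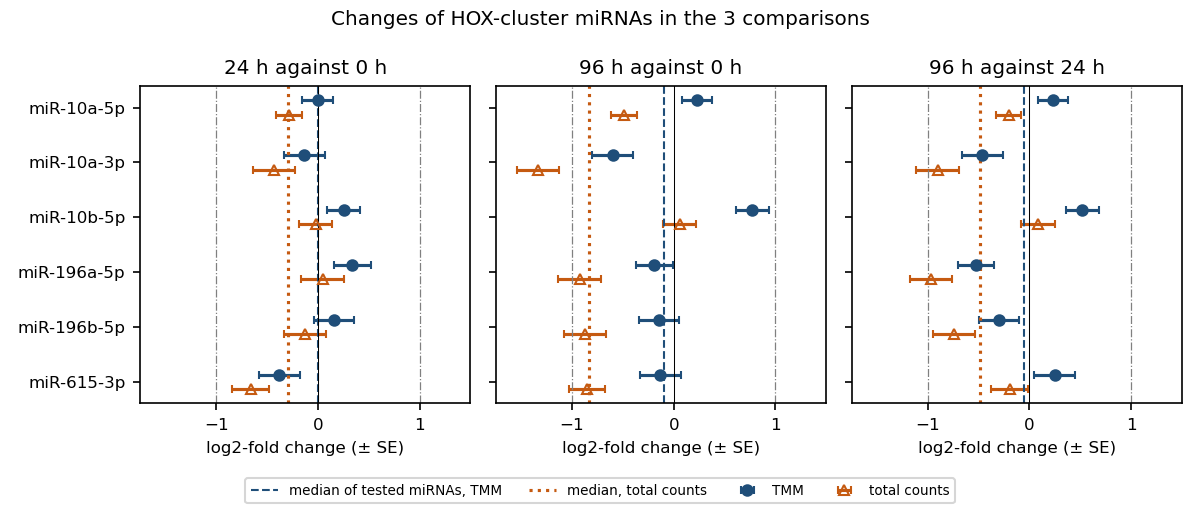
Log2-fold change (x axis) of each tested HOX-cluster miRNA (y axis) in the 3 comparisons, with TMM (filled circles) and total counts (open triangles); error bars are standard errors, dashed and dotted lines the medians of all 491 tested miRNAs, and outer lines the fold-change threshold of 1. With TMM all 18 points lie inside the threshold, and with total counts miR-10a-3p lies outside it at 96 h, at −1.34.

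Of the guide strands, miR-10b-5p, made from the HOXD cluster, rose during TGF-β treatment on the TMM scale, while miR-10a-5p, made from the HOXB cluster, did not pass the test. miR-10b-5p had 536 and 517 reads before treatment, 560 and 684 after 24 h, and 1244 and 1165 after 96 h. These correspond to 196 and 154 CPM after TMM before treatment, 208 and 209 after 24 h, and 282 and 316 after 96 h. Both libraries of a later time point were above both libraries of the earlier one throughout. The log2-fold change at 96 h against 0 h was 0.77 (standard error 0.16, 1.71-fold, adjusted p = 0.00443, Benjamini-Hochberg adjustment, edgeR). The same edgeR test gave 0.25 (standard error 0.16, adjusted p = 0.346) between 0 and 24 h and 0.52 (standard error 0.16, adjusted p = 0.0599) between 24 and 96 h. With total counts miR-10b-5p changed by 0.059 on the log2 scale at 96 h (standard error 0.16, adjusted p = 0.768, same edgeR test). The median over all tested miRNAs was then −0.83. The libraries at 0 and 96 h overlapped, at 230 and 210 against 208 and 250 CPM of the total count. Totals that leave out miR-21-5p gave 0.42 (standard error 0.15, adjusted p = 0.0436, same edgeR test), beside a median of −0.45. Of 17 alternatives for this comparison, 1 reversed the direction, limma on the normalized values (−0.061).

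miR-10a-5p had 15157 and 14936 reads before treatment, 13211 and 16555 after 24 h, and 24615 and 22573 after 96 h. After TMM these were 5552 and 4457 CPM before treatment, 4917 and 5064 after 24 h, and 5585 and 6122 after 96 h. Both 96 h libraries were above the rest, 0 h replicate 1 by a narrow margin, and the log2-fold change of 0.23 (standard error 0.15) had an adjusted p of 0.239 in the same edgeR test. Without 0 h replicate 1 it was 0.44 (adjusted p = 0.0210, same edgeR test), so that this library decides the side of the p threshold. With total counts miR-10a-5p went the other way, from 6491 and 6080 CPM of the total at 0 h to 5189 and 5151 at 24 h and 4122 and 4845 at 96 h, or −0.49 on the log2 scale (standard error 0.13, adjusted p = 0.00956, same edgeR test). The share of all reads that went to miR-10a-5p was therefore lower at 96 h, and its level relative to most other miRNAs was not shown to change.

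The ratio between both miR-10 guide strands does not depend on the scaling between libraries. It does bear the limit that reads of this near-identical pair may have been exchanged, which was not tested. There were 28.3 and 28.9 reads of miR-10a-5p for each read of miR-10b-5p before treatment, 23.6 and 24.2 after 24 h, and 19.8 and 19.4 after 96 h. The time points did not overlap, and the ratio was lower at each later time. The difference of the mean log2 ratios was −0.26 (counting standard error 0.062) between 0 and 24 h, −0.29 (0.052) between 24 and 96 h, and −0.55 (0.054) between 0 and 96 h. The SD between the 2 libraries of a time point was 0.021 to 0.026 on the same log2 scale. That is below the counting standard error of a single library, 0.042 to 0.065, so 2 libraries do not measure this spread well. With 2 libraries against 2, the exact permutation test (two-sided) gave p = 0.333 for each of these steps, which is the smallest p it allows. The runs of 5 libraries could be read apart from the normalized values, and over single runs the ratio was 26.3 to 33.8 at 0 h (4 runs), 21.6 to 24.7 at 24 h (4 runs), and 19.3 to 21.4 at 96 h (2 runs). Runs are repeats of a library and not further replicates, and both runs at 96 h are of replicate 1. Single runs at 0 h stayed above those at 24 h. The lowest run at 24 h, 21.6, and the highest at 96 h, 21.4, were nearly equal. They rested on 198 and 303 reads of miR-10b-5p, in that order, so runs at 24 and 96 h were not clearly separated. The 2 runs of a library differed in miR-10b-5p by 0.022 to 0.32 on the log2 scale and in miR-10a-5p by 0.018 to 0.054.

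**Figure D3:**
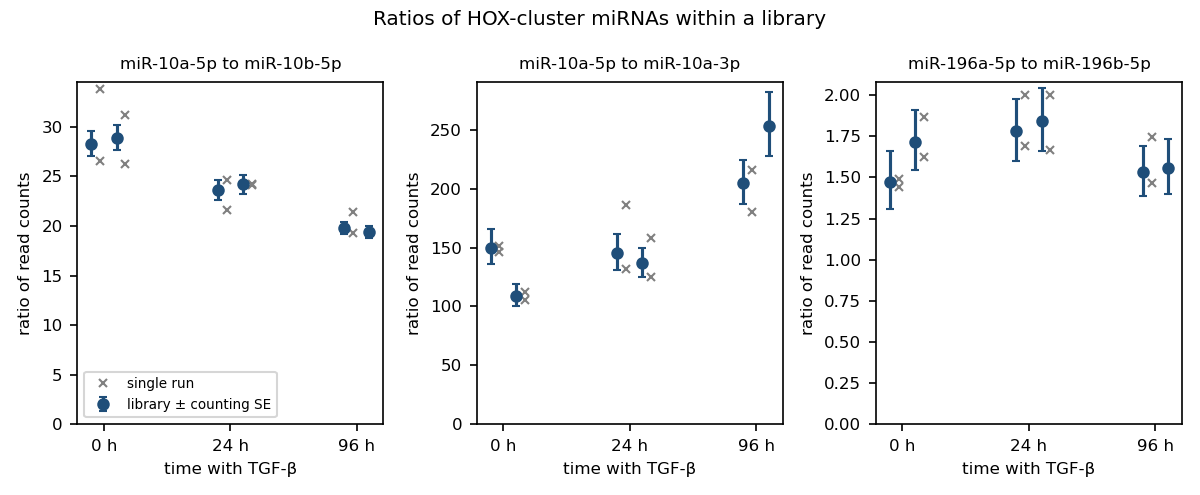
Ratio of read counts within a library (y axis, from 0) at 0, 24, and 96 h of TGF-β (x axis) for both miR-10 guide strands, both strands of MIR10A, and both miR-196 guide strands; circles are libraries with the counting standard error, and crosses single runs of the 5 libraries in which runs could be separated. In the libraries, the ratio of miR-10a-5p to miR-10b-5p steps down from above 28 to below 20, and that of miR-196a-5p to miR-196b-5p stays between 1.47 and 1.84. Single runs spread more widely.

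The other strand of the MIR10A hairpin, miR-10a-3p, was lower at 96 h, while its guide strand did not pass the test. Such a strand is normally discarded when the guide is loaded into Argonaute, and it is much rarer here. miR-10a-3p had 101 and 137 reads before treatment, 91 and 121 after 24 h, and 120 and 89 after 96 h, although the 96 h libraries were the deepest. After TMM these were 37.0 and 40.9 CPM before treatment, 33.9 and 37.0 after 24 h, and 27.2 and 24.1 after 96 h, and the 96 h libraries lay below all others. The log2-fold change at 96 h against 0 h was −0.60 (standard error 0.20, adjusted p = 0.0351, Benjamini-Hochberg adjustment, edgeR), and −0.14 (adjusted p = 0.669) at 24 h in the same edgeR test. Its adjusted p at 96 h rose above 0.05 when either 96 h library, either 24 h library, or 0 h replicate 2 was left out, up to 0.201 without 96 h replicate 2, and it was 0.274 with DESeq2's Wald test. With total counts the fall was larger, from 43.3 and 55.8 to 20.1 and 19.1 CPM of the total, and passed both thresholds (log2-fold change −1.34, standard error 0.21, adjusted p = 0.000996, edgeR). It was then 1 of 6 called lower, beside 39.1% of all tested miRNAs under total counts.

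Within a library, miR-10a-5p had 150 and 109 reads for each read of miR-10a-3p before treatment, 145 and 137 after 24 h, and 205 and 254 after 96 h. Both 96 h libraries were above all others, and the log2 ratio was higher by 0.83 (counting standard error 0.14) at 96 h than at 0 h, against an SD of 0.33 between libraries at 0 h and 0.22 at 96 h (exact permutation test, two-sided, p = 0.333, the smallest possible). Over single runs the ratio was 105 to 152 at 0 h, 125 to 186 at 24 h, and 180 to 216 at 96 h, so that runs at 24 and 96 h overlapped. The corresponding strand of MIR10B, miR-10b-3p, was at the limit of detection, with 1 and 4 reads before treatment, 0 and 6 after 24 h, and 2 and 0 after 96 h. A count of 0 allows up to 3 reads, which is 1.12 CPM after TMM in 24 h replicate 1 and 0.814 in 96 h replicate 2, so no change of miR-10b-3p was detectable at this depth.

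The miR-196 guide strands, whose genes lie in HOXA, HOXB, and HOXC, did not pass the test on the TMM scale in any comparison and were lowest at 96 h. miR-196a-5p had 174 and 242 reads before treatment, 251 and 258 after 24 h, and 256 and 226 after 96 h. After TMM these were 63.7 and 72.2 CPM before treatment, 93.4 and 78.9 after 24 h, and 58.1 and 61.3 after 96 h, so that both 24 h libraries were above and both 96 h libraries below those at 0 h. The log2-fold changes were 0.34 (standard error 0.18, adjusted p = 0.242) at 24 h against 0 h, −0.19 (0.18, adjusted p = 0.422) at 96 h against 0 h, and −0.53 (0.18, adjusted p = 0.0737) at 96 h against 24 h in edgeR with Benjamini-Hochberg adjustment. The last comparison had the largest change of miR-196a-5p, which ran from −0.56 to −0.40 over the 6 fits that each left out a library. miR-196a-5p is encoded by both MIR196A1 and MIR196A2, and the table lists it on 2 entries with unequal counts; the entry not used had 140 and 239 reads before treatment, 215 and 217 after 24 h, and 216 and 186 after 96 h. The entries do not say which gene a read came from.

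miR-196b-5p, made from the HOXA cluster, had 118 and 141 reads before treatment, 141 and 140 after 24 h, and 167 and 145 after 96 h. After TMM these were 43.2 and 42.1 CPM before treatment, 52.5 and 42.8 after 24 h, and 37.9 and 39.3 after 96 h, with log2-fold changes of 0.16 at 24 h and −0.14 at 96 h against 0 h (standard errors 0.20 and 0.19, adjusted p = 0.629 and 0.573, same edgeR test). With total counts both miR-196 guide strands fell at 96 h against 0 h, by log2-fold changes of −0.92 and −0.87 (adjusted p = 0.00546 and 0.00626, same edgeR test), close to the median of −0.83 over all tested miRNAs. The ratio of miR-196a-5p to miR-196b-5p was 1.47 and 1.72 before treatment, 1.78 and 1.84 after 24 h, and 1.53 and 1.56 after 96 h. Its log2 difference between 0 and 96 h was −0.042 (counting standard error 0.16), within the SD of 0.15 between the 0 h libraries, and since reads of the pair may be exchanged the ratio bears that limit too.

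miR-615-3p, made from the HOXC cluster, was lowest at 24 h on the TMM scale. It had 200 and 194 reads before treatment, 127 and 174 after 24 h, and 288 and 199 after 96 h. After TMM these were 73.3 and 57.9 CPM before treatment, 47.3 and 53.2 after 24 h, and 65.3 and 54.0 after 96 h. Both 24 h libraries lay below all others, and the libraries at 0 and 96 h overlapped. Against 0 h, miR-615-3p differed on the log2 scale by −0.38 (standard error 0.20, adjusted p = 0.246) at 24 h and −0.13 (0.20, adjusted p = 0.616) at 96 h in edgeR with Benjamini-Hochberg adjustment. With total counts it fell by 0.66 on the log2 scale at 24 h and by 0.85 at 96 h (adjusted p = 0.0434 and 0.00387, same edgeR test). The medians over all tested miRNAs were then −0.30 and −0.83, so that the fall at 96 h was close to the median. For each read of miR-615-3p there were 0.870 and 1.25 reads of miR-196a-5p before treatment, 1.98 and 1.48 after 24 h, and 0.889 and 1.14 after 96 h. This ratio was higher in both 24 h libraries than in the other 4, with a mean log2 of 0.78 at 24 h, 0.059 at 0 h, and 0.0068 at 96 h (SD 0.29, 0.37, and 0.25). The exact permutation test (two-sided) gave p = 0.333 for 24 h against 0 h, the smallest p it allows. The ratio was not among those planned. It sets a miRNA highest at 24 h against a miRNA lowest there, so its direction follows from the levels above.

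The remaining strands of these hairpins were close to absent. miR-196a-3p had 0 to 3 reads per library, miR-196b-3p 0 to 3, and miR-615-5p 0 to 3. In every library the guide strand of these hairpins was therefore counted far more often than its partner, as also for MIR10A and MIR10B.

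Outside the HOX clusters, miR-99a-5p, miR-99b-5p, miR-100-5p, miR-125a-5p, and miR-125b-5p are usually grouped with miR-10 in a wider family of related sequence. At 96 h against 0 h, 0 of these 5 were called at both thresholds, beside 25.9% of all tested miRNAs. By the adjusted p of edgeR alone, 4 of the 5 were under 0.05, all higher, beside 22.8% of all tested miRNAs. The log2-fold changes ran from 0.37 to 0.96 with a median of 0.59. With total counts 0 of the 5 passed the adjusted p, beside 323 of all 491 tested miRNAs. Their log2-fold changes then ran from −0.37 to 0.26, with a median of −0.14 beside −0.83 over all tested miRNAs. On the TMM scale miR-10b-5p lay within the range of these relatives and miR-10a-5p and miR-10a-3p below it. miR-10a-5p had 0.226 ± 0.0135 reads for each read of miR-100-5p at 0 h (SD, n = 2 libraries), 0.178 ± 0.000320 at 24 h, and 0.137 ± 0.00102 at 96 h, and the time points did not overlap. This ratio, too, was not planned, and miR-100-5p lies near the upper end of the range of the relatives. On the TMM scale at 96 h, miR-100-5p changed by 0.95 and miR-10a-5p by 0.23 on the log2 scale. The direction of the ratio follows from these changes.

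**Figure D4:**
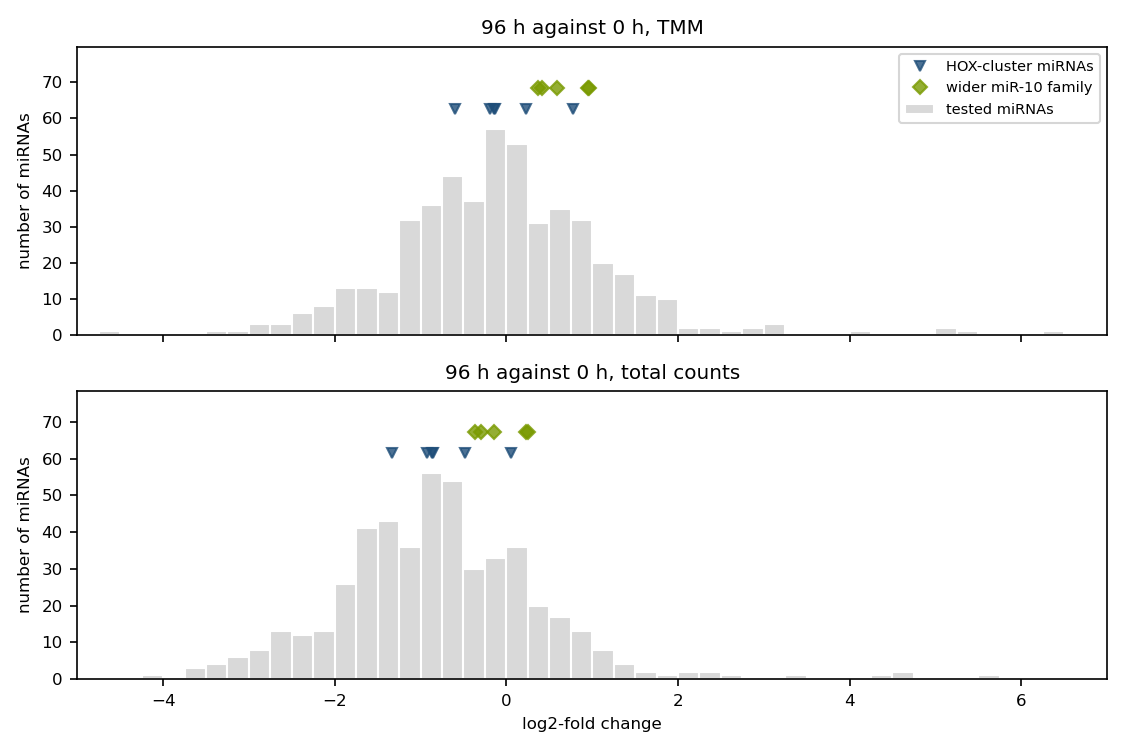
Number of tested miRNAs (y axis, grey bars of 0.25 log2 units) by log2-fold change at 96 h against 0 h (x axis) with TMM (upper panel) and total counts (lower panel); triangles mark the 6 tested HOX-cluster miRNAs and diamonds 5 relatives of miR-10 outside the clusters, of which 2 nearly coincide. The HOX-cluster miRNAs run from −0.60 to 0.77 with TMM and from −1.34 to 0.059 with total counts, around the bulk of the bars.

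Among 316 other miRNAs whose mean level was 10 CPM or more, those with a level most like that of miR-10b-5p over the 6 libraries were miR-30e-3p, miR-182-5p, and miR-100-5p, with Pearson's r of 0.993, 0.992, and 0.985 on the log2 scale. For miR-10a-5p they were miR-4443, miR-16-2-3p, and miR-27a-3p, with 0.939, 0.929, and 0.903. These values describe 6 points that share the library, its depth, and its normalization factor, which ranged from 0.738 to 1.36.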

How the data were processed

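Trizol was used to extract RNA from A549 cells, and small RNA libraries were sequenced on an Illumina HiSeq. The authors counted reads with miRDeep2 (the labels name FastQC and hg19; the miRNA reference set and mapper settings are not given in the sources used here). The deposited counts are whole reads per mature miRNA and precursor, with both runs of a library summed. The authors also deposited a normalized signal, in which the reads of each run are scaled to that run's total and then summed; 1 column repeats another in name and values and was not used, so that 96 h replicate 2 has no normalized value. In the other 5 libraries every entry came out as whole reads of 2 runs that sum to the count (tolerance 0.01 in the normalized value), which gave counts per run; the columns do not say which run is which date.

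The deposited counts went into edgeR 4.0.16 under R 4.3.3: TMM, filterByExpr (minimum count 10), 1 model with time as its only term over 6 libraries, the quasi-likelihood test, and Benjamini-Hochberg adjustment over 491 miRNAs. The thresholds of the study were used, 0.05 for the adjusted p and 1 for the size of the log2-fold change. The standard error is the absolute log2-fold change over the square root of F. One read was worth 0.167 to 0.428 CPM of the total count; limits of 3 reads and counting errors cover counting error only. The script was tested on simulated data. Alternatives used DESeq2 1.42.0, limma 3.58.1 on log2(normalized value + 1), other normalizations, filters, and sets of libraries. The names followed were the 7 miRNAs, the other strands of their hairpins, 5 relatives, marker lists, and the 3 miRNAs most alike in profile to each of the 2 most abundant members. Members and lists were chosen with earlier results of these data known. Positions are from the GENCODE annotation of GRCh37 and, for MIR10A, a match of its hairpin to that genome. Tables and figures used Python 3.11.15 (pandas 2.3.3, numpy 2.4.6), figures matplotlib 3.10.9, and permutation tests enumerated every split of the libraries.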

Additional observations from a re-analysis of the deposited data

How the results depend on the processing

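With 2 libraries per time point, changes below the fold-change threshold rest on few values, and the scaling moved most of them. The number of HOX-cluster miRNAs called was 0 under every alternative in the comparisons with 24 h. At 96 h against 0 h it was 1 (miR-10a-3p) with total counts and with limma on the normalized values, 2 without a minimum fold change, and 0 otherwise, leaving out each library included. The limma fit has 1 library at 96 h, and each fit without a library leaves 1 in its group, so that the lone library is assumed to vary like the others. Directions at 24 h against 0 h reversed for miR-10a-5p with DESeq2's size factors (0.013), without an expression filter (0.021), with DESeq2 (0.026), and without 0 h or 24 h replicate 1 (0.20 and 0.052, in that order; −0.14 to 0.20 over the libraries left out). They did so for miR-10b-5p with total counts (−0.024), and for miR-196b-5p with total counts (−0.13), without miR-21-5p in them (−0.024), and limma (−0.14). At 96 h against 0 h they reversed for miR-10a-5p with total counts (−0.49), without miR-21-5p in them (−0.12), and limma (−0.59), for miR-10b-5p with limma (−0.061), for miR-196b-5p with thinned libraries (0.020), and for miR-615-3p without 0 h replicate 1 or 96 h replicate 2 (0.089 and 0.042, in that order; −0.29 to 0.089 over the libraries left out). At 96 h against 24 h they reversed with total counts for miR-10a-5p (−0.21) and miR-615-3p (−0.19), and with limma for miR-10a-5p (−0.31), miR-10b-5p (−0.086), and miR-615-3p (−0.084). The scaling itself shifts all miRNAs; the other causes were not tested. With the smaller and the larger run alone, which lack 96 h replicate 2 and were chosen after seeing the data, the change of the log2 ratio of miR-10a-5p to miR-10b-5p was −0.48 and −0.58, and with the smaller run that of miR-10a-5p to miR-10a-3p was 0.54 and that of miR-196a-5p to miR-196b-5p reversed to 0.086. The share of the 7 miRNAs differed by −0.19 percentage points at 96 h (from 0.678% to 0.485%, libraries not overlapping); without miR-21-5p in the total the difference was −0.11 percentage points on a larger base (1.38% and 1.59% at 0 h, 1.30% and 1.45% at 96 h), and the libraries overlapped.

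With the replicate number as a block, 0 HOX-cluster miRNAs were called in each comparison, and the log2-fold changes at 96 h were 0.78 for miR-10b-5p and −0.60 for miR-10a-3p (adjusted p = 0.00452 and 0.0537, edgeR's quasi-likelihood test). Over all miRNAs the block gave 20 calls in place of 17 between 0 and 24 h, 124 in place of 127 between 0 and 96 h, and 41 in place of 29 between 24 and 96 h. The deviations of same-numbered libraries correlated by 0.33 between 0 and 96 h, but by −0.31 between 0 and 24 h and −0.20 between 24 and 96 h, so that the numbers were not taken as pairs.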
